A study of Mus musculus with 13 samples.

Results

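Transcripts of the nuclear-encoded subunits and assembly factors of respiratory complex I were measured in whole parametrial white adipose tissue (pmWAT) of mice with an inducible deletion of *Lmna* in adipocytes. The genes were taken by symbol: protein-coding genes whose name begins with Nduf followed by a, b, c, s, v or af, with at least 10 counts summed over the 13 mice. This gave 47 of the 33618 genes in the count table, and all 47 were abundant enough to be tested. Of these, 37 encode subunits of complex I and 8 encode assembly factors of the NDUFAF family. The remaining 2, *Ndufa4* and *Ndufa4l2*, carry the symbol but are not complex I subunits, since NDUFA4 is placed in complex IV, and they are given apart. *Ndufb11b* has a matching symbol and was not analysed here.

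The controls were 7 *Lmna* fl/fl mice, which carry loxP sites in both copies of *Lmna* and no Cre. The 6 *Lmna* iADKO mice were *Lmna* fl/fl with 1 copy of *Adipoq*-CreERT2, a tamoxifen-activated Cre driven by the adiponectin promoter and therefore aimed at adipocytes. Both genotypes received intraperitoneal tamoxifen at 50 mg/kg on 5 consecutive days at 12 to 14 weeks of age, and the fat pad was collected 2 weeks after tamoxifen. Every library came from the whole fat pad of 1 mouse, so stromal, vascular and immune cells, which the Cre does not target, contributed RNA to each value. Because there was no control group with Cre and without the floxed alleles, effects of Cre itself and of the *Lmna* deletion cannot be told apart.

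Complex I (NADH:ubiquinone oxidoreductase) takes electrons from NADH, passes them along a flavin and a chain of iron-sulfur clusters to ubiquinone, and pumps protons across the inner mitochondrial membrane. It has an L shape, with a matrix arm that holds the redox centres and a membrane arm that holds the proton pumps. The core subunits carry out catalysis; those of the matrix arm are encoded in the nucleus and those of the membrane arm in mitochondrial DNA. Accessory subunits, all nuclear, surround the core, and assembly factors help to build the complex without staying in it. In white adipocytes the respiratory chain supplies ATP for lipid synthesis, and its NADH comes from the breakdown of glucose, fatty acids and amino acids.

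The targeted gene showed no fall in the 6 libraries labelled iADKO. *Lmna* CPM (counts scaled to library size with the trimmed mean of M values, TMM) were 98.5, 83.5, 89.4, 83.3, 74.7, 80.1 and 83.5 in fl/fl mice 1 to 7 and 89.0, 109, 109, 100.3, 93.3 and 80.1 in iADKO mice 1 to 6. The means were 84.7 ± 7.51 (SD, n = 7) and 96.7 ± 11.5 (SD, n = 6), a log2 fold change of 0.19 ± 0.08 (SE) with an adjusted p of 0.0785. It was called higher when fl/fl mouse 1 (adjusted p 0.0411) or iADKO mouse 6 (0.0208) was left out, and with all mice when libraries were scaled by their totals alone (log2 fold change 0.40, adjusted p 0.00101). These counts cover the whole gene, including exons outside the floxed part and cells without Cre, so they do not check the genotype labels, and every direction given here rests on the labels. Libraries held 18854223 to 19776491 counted reads each. Of 16753 genes tested, 2737 (16.3%) were lower and 2367 (14.1%) higher in iADKO at an adjusted p under 0.05, and the median log2 fold change of all of them was 0.03.

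Mouse 5 of the fl/fl group and mouse 6 of the iADKO group stood apart from their groups. The adipocyte markers (*Adipoq*, *Plin1*, *Lipe* and 6 others), as mean log2 CPM relative to the fl/fl mean, were at -0.56 in fl/fl mouse 5 and between -0.03 and 0.31 in the other fl/fl mice. In iADKO mouse 6 they were at -0.49, against -1.19 to -0.85 in the other iADKO mice. Both mice are kept in the values that follow, and the main counts are also given without them.

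The nuclear complex I subunits were lower in iADKO pmWAT as a group. At an adjusted p under 0.05, 28 of 37 subunits were lower and 0 were higher, beside 16.3% of all genes tested that were lower and 14.1% that were higher. Measured by sign alone, 36 of 37 log2 fold changes were negative, beside 45.3% over all genes tested. The median was -0.36, a level 22.0% lower, with a range from -0.62 for *Ndufa10* to 0.12 for *Ndufb2*. None of the 37 separated the genotypes completely, beside 3.93% of all genes in which every iADKO value was below every fl/fl value and 2.71% in which it was above. Fl/fl mouse 5 had the lowest fl/fl value in 36 of 37 subunits, iADKO mouse 6 had the highest iADKO value in 35, and iADKO mouse 6 was above fl/fl mouse 5 in all 37. In whole tissue, fewer adipocytes and less of these transcripts per cell cannot be told apart.

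**Figure D1:**
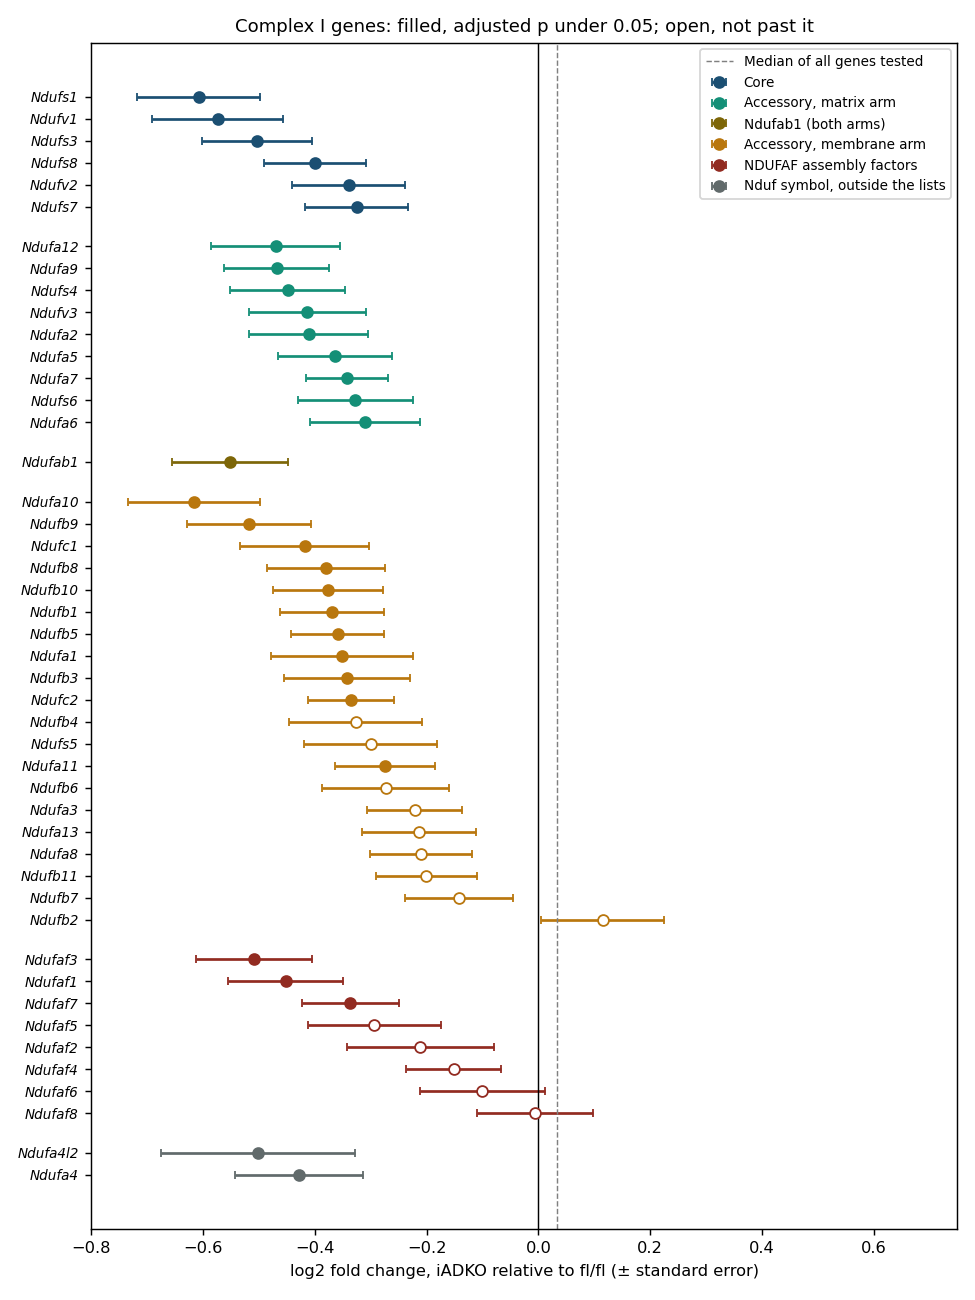
Log2 fold change (iADKO relative to fl/fl, x axis) with its standard error for 46 genes, grouped by role. The core subunits shown and all 9 matrix-arm accessory subunits are filled (adjusted p under 0.05), the 9 open subunit symbols are all in the membrane arm, and *Ndufb2* is the only subunit to the right of 0.

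Without fl/fl mouse 5 and iADKO mouse 6, an alternative chosen after the data were seen, 36 of 37 subunits were lower and the median log2 fold change was -0.49. In 35 of 37, all 5 remaining iADKO mice were then below all 6 remaining fl/fl mice. Over all genes the same fit called 23.3% lower, and 15.8% did not overlap in that direction.

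The nuclear core subunits form the catalytic matrix arm, and the 6 described here all fell. *Ndufs1* encodes the largest core subunit, which holds several of the iron-sulfur clusters. It was at 117 (lowest), 181 (median) and 190 CPM (highest) in fl/fl and at 95.3, 111 and 141 CPM in iADKO. Only fl/fl mouse 5 lay within the iADKO range. Its log2 fold change was -0.61 ± 0.11 (SE, adjusted p 0.00155), a level 34.4% lower. *Ndufv1* encodes the subunit that binds NADH and the flavin, the point of entry for electrons. Its levels were 125, 190 and 217 CPM in fl/fl and 101, 121 and 158 CPM in iADKO, for a log2 fold change of -0.57 ± 0.12 (SE, adjusted p 0.00298).

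*Ndufs3*, which encodes a protein of the lower matrix arm, fell by 0.50 on the log2 scale, from 84.0 ± 11.6 (SD, n = 7) to 59.3 ± 6.49 CPM (SD, n = 6). For *Ndufs3*, 62.5% of the transcript has a near-identical copy elsewhere in the genome, so its counts are less certain than those of *Ndufs1* and *Ndufv1*.

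*Ndufs8*, *Ndufs7* and *Ndufv2* encode iron-sulfur proteins of the matrix arm. *Ndufs8* went from 37.6, 49.9 and 54.5 CPM in fl/fl to 31.7, 37.4 and 43.1 CPM in iADKO (log2 fold change -0.40 ± 0.09, SE, adjusted p 0.00542). The smallest falls among these 6 were -0.34 ± 0.10 for *Ndufv2* (SE, adjusted p 0.0202) and -0.33 ± 0.09 for *Ndufs7* (SE, adjusted p 0.0160). In *Ndufs7*, iADKO mouse 6 reached 63.6 CPM, above the fl/fl median of 63.3 CPM.

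**Figure D2:**
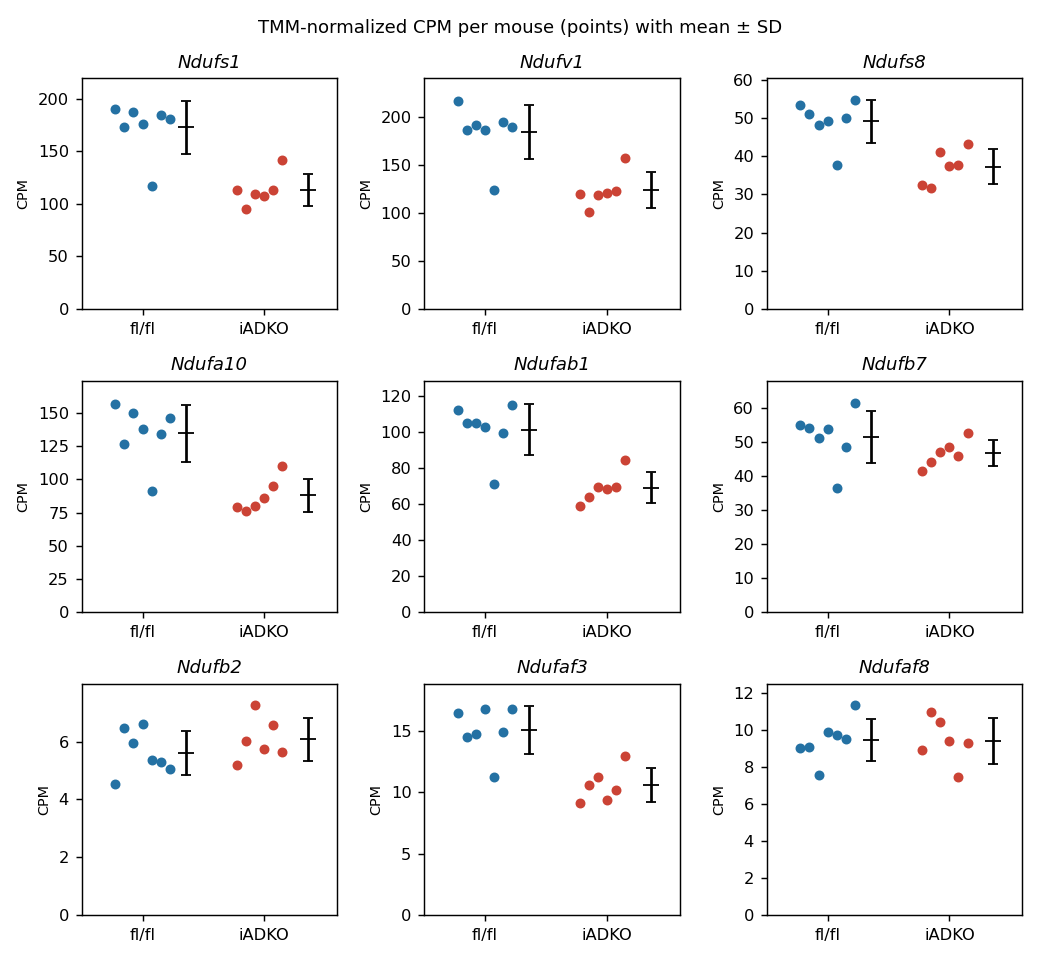
TMM-normalized CPM (linear y axis from 0) in each mouse for 9 named genes, with the mean ± SD beside the points (fl/fl, n = 7; iADKO, n = 6). *Ndufs1*, *Ndufv1*, *Ndufs8*, *Ndufa10*, *Ndufab1* and *Ndufaf3* show lower iADKO values with 1 low fl/fl point (mouse 5), and *Ndufb2*, *Ndufb7* and *Ndufaf8* show overlapping groups.

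All 9 accessory subunits of the matrix arm also fell, with log2 fold changes between -0.47 and -0.31 and a median of -0.41. *Ndufa12* was at 30.1, 43.6 and 53.7 CPM in fl/fl and 27.9, 30.5 and 39.7 CPM in iADKO (log2 fold change -0.47 ± 0.12, SE, adjusted p 0.00827). A near-identical copy covers 39.2% of the *Ndufa12* transcript. *Ndufa9* contributes a protein at the junction of the arms. It stood at 103, 139 and 155 CPM in fl/fl and 84.2, 98.2 and 121 CPM in iADKO (-0.47 ± 0.09, SE, adjusted p 0.00278). *Ndufs4*, whose loss in mice causes a Leigh-like mitochondrial encephalopathy, was at 32.4, 49.9 and 57.4 CPM and at 32.5, 33.8 and 39.9 CPM (-0.45 ± 0.10, SE, adjusted p 0.00567). Here every iADKO mouse was below the fl/fl mice other than mouse 5.

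*Ndufab1* encodes the mitochondrial acyl carrier protein, which sits in both arms and also serves mitochondrial fatty acid synthesis. It was at 70.9, 105 and 115 CPM in fl/fl and 58.6, 68.9 and 84.1 CPM in iADKO, a log2 fold change of -0.55 ± 0.10 (SE, adjusted p 0.00187). Its transcript has 7 near-identical copies elsewhere in the genome, which together cover 55.1% of it.

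Accessory subunits of the membrane arm were less uniform, with 11 of 20 lower, 0 higher and a median log2 fold change of -0.33. *Ndufa10* showed the lowest value of all 37 subunits, -0.62 ± 0.12 (SE, adjusted p 0.00220), with 91.1, 138 and 157 CPM in fl/fl and 76.5, 83.3 and 110 CPM in iADKO. *Ndufb9* was next in this arm, at 17.3, 25.1 and 26.3 CPM and at 13.9, 16.5 and 20.8 CPM (-0.52 ± 0.11, SE, adjusted p 0.00386). The calls in this arm depended on which mice were kept: 19 of 20 were lower without fl/fl mouse 5, 17 of 20 without iADKO mouse 6 and 19 of 20 without both. Those fits called 19.7%, 18.1% and 23.3% of all genes lower. Leaving out any other single mouse gave 8 to 10 of 20, in fits that called 13.1% to 15.9% of all genes lower.

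The 9 subunits that did not pass were all in the membrane arm. *Ndufb4* came nearest, with a log2 fold change of -0.33 and an adjusted p of 0.0502. *Ndufs5* (-0.30), *Ndufb6* (-0.27), *Ndufa3* (-0.22), *Ndufa13* (-0.21), *Ndufa8* (-0.21), *Ndufb11* (-0.20) and *Ndufb7* (-0.14) had negative values with adjusted p between 0.0605 and 0.275. *Ndufa8* was at 49.2, 69.2 and 71.0 CPM in fl/fl and 48.8, 55.8 and 68.2 CPM in iADKO. *Ndufb11*, an X-linked gene, was at 63.5, 85.7 and 97.9 CPM and at 64.6, 70.3 and 83.9 CPM. For *Ndufb7* the values were 36.4, 53.8 and 61.6 CPM and 41.6, 46.6 and 52.7 CPM. In these genes the iADKO range lay largely inside the fl/fl range. All 3 passed without fl/fl mouse 5 (adjusted p 0.00769, 0.0150 and 0.0215), and *Ndufa8* and *Ndufb11* also passed without iADKO mouse 6.

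*Ndufb2* was the only subunit with a positive value, 0.12 ± 0.11 (SE, adjusted p 0.445). It was the subunit with the fewest counts, 1479 over all mice, at 4.54, 5.36 and 6.60 CPM in fl/fl and 5.21, 5.89 and 7.27 CPM in iADKO. The lowest value of fl/fl mouse 5 did not recur here, as fl/fl mouse 1 was lowest. When libraries were scaled by their totals alone, *Ndufb2* was called higher (0.32, adjusted p 0.0321), a scaling that moved the median of all genes up by 0.20 on the log2 scale.

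The 9 subunits that did not pass had fl/fl means from 5.61 to 85.3 CPM (median 51.5) and the 28 that fell had a median of 71.3 CPM, and the median standard error was 0.10 in both sets. Their log2 fold changes were closer to 0, with a median of -0.21 against -0.39. Copies of at least 100 bases and 95% identity elsewhere in the genome were found for 5 of the 9 and for 9 of the 28. The largest coverage among the 9 was 91% of the *Ndufs5* transcript, followed by 49.8% for *Ndufb4*, 38.6% for *Ndufb11* and 36.9% for *Ndufb6*. *Ndufb2* had 13 such copies, which covered 443 bases, or 10.1% of its canonical transcript of 4389 bases. Coverage reached 30% or more in 8 subunits, and 4 of these were among the 28 that fell. Reads from such stretches can be split or lost in counting, and their part in the result was not tested. Neither was the difference between the arms. With the library-number series described below as a block, 1 of 9 matrix-arm and 3 of 20 membrane-arm accessory subunits were lower. That fit called 7.17% of all genes lower. Those counts were 5 of 9 and 7 of 20 with the replicate number as a block, without fl/fl mouse 7. There 14.7% of all genes were lower.

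Of the 8 NDUFAF assembly factors, 3 were lower and 0 higher in iADKO, with a median log2 fold change of -0.25. Over all genes tested, 16.3% were lower and 14.1% higher. *Ndufaf3*, which acts early in building the ubiquinone-binding module, was at 11.3, 14.9 and 16.8 CPM in fl/fl and 9.15, 10.4 and 13 CPM in iADKO (-0.51 ± 0.10, SE, adjusted p 0.00305). *Ndufaf1*, a member of the complex that assembles the membrane arm, was at 19.8, 27.0 and 29.6 CPM and at 15.9, 19 and 23 CPM (-0.45 ± 0.10, SE, adjusted p 0.00530). *Ndufaf7*, a mitochondrial methyltransferase, was at 19.8, 25.9 and 26.1 CPM and at 15.9, 19.7 and 21.9 CPM (-0.34 ± 0.09, SE, adjusted p 0.0107). In each of the 3, fl/fl mouse 5 was the only fl/fl mouse at or below the highest iADKO value, except that *Ndufaf1* in fl/fl mouse 4 (22.9 CPM) was also below iADKO mouse 6 (23 CPM).

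The other 5 NDUFAF genes did not pass. *Ndufaf5*, which hydroxylates NDUFS7, was at -0.29 ± 0.12 on the log2 scale (SE, adjusted p 0.0743) and was called lower by DESeq2 (adjusted p 0.0483). *Ndufaf2* (-0.21), *Ndufaf4* (-0.15) and *Ndufaf6* (-0.10) had adjusted p of 0.237, 0.189 and 0.516. *Ndufaf8*, a partner of NDUFAF5, was at 7.57, 9.55 and 11.4 CPM in fl/fl and 7.45, 9.37 and 11 CPM in iADKO, a log2 fold change of -0.01 ± 0.10 (SE, adjusted p 0.966). The direction of *Ndufaf8* changed with the setting, and that of *Ndufaf4* and *Ndufaf6* with scaling by library totals. *Ndufaf5* passed without fl/fl mouse 5 or without iADKO mouse 6, and *Ndufaf4* without fl/fl mouse 5. Without fl/fl mouse 5, 5 of 8 passed, and without both mice that stood apart 6 of 8 passed, with a median of -0.38, in fits that called 19.7% and 23.3% of all genes lower. Whether assembly factors differed from subunits was not tested.

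NDUFAF transcripts were scarcer than those of the subunits. Per kilobase of canonical transcript, the fl/fl level had a median of 8.03 CPM (range 2.38 to 12.0) over the 8 NDUFAF genes and of 58.3 CPM (1.28 to 161) over the 37 subunits. The iADKO medians were 6.24 and 47.1 CPM per kilobase. *Ndufb10* had the highest subunit level and *Ndufb2* the lowest, the latter over a long canonical transcript of 4389 bases. Within groups the coefficient of variation had a median of 12.9% in fl/fl and 13.1% in iADKO for NDUFAF genes and of 13.9% and 12.2% for subunits. Over all genes tested it was 13.9% and 11.9%.

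Assembly factors outside the NDUFAF family followed the same direction, with 7 of 10 tested lower and 0 higher, beside 16.3% and 14.1% of all genes. *Coa1*, the 11th on the list, could not be matched by symbol and was not analysed here. *Nubpl*, which delivers iron-sulfur clusters to complex I, was at 11.4, 12.3 and 14.5 CPM in fl/fl and 7.46, 8.15 and 10.6 CPM in iADKO. It was the only 1 of these 10 genes in which every iADKO mouse lay below every fl/fl mouse, beside 3.93% of all genes tested. Its log2 fold change was -0.58 ± 0.09 (SE, adjusted p 0.000734). *Foxred1*, another factor of complex I assembly, fell by 0.49 on the log2 scale (adjusted p 0.00189). *Ecsit* (-0.36), *Timmdc1* (-0.32), *Acad9* (-0.28) and *Tmem126b* (-0.22), members of the complex that assembles the membrane arm, were also lower, as was *Tmem186* (-0.34). The call for *Tmem126b* was lost without iADKO mouse 2 (adjusted p 0.0540). *Dmac1* (-0.05), *Tmem126a* (-0.11) and *Dmac2* (0.12) did not pass.

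The mitochondrially encoded core subunits, which make up the proton-pumping part of the membrane arm, are read from another genome and were not chosen by the symbol rule. Of 7 such genes, 6 were tested and all 6 were lower, beside 16.3% of all genes tested. Their median log2 fold change was -0.77. A further edgeR fit took as a block the series grouped here from the library numbers of the labels. In that fit 0 of the 6 were called (adjusted p 0.0969 to 0.211, 2 of 6 at an unadjusted p under 0.05) and the median was -0.63. *mt-Nd1* was at 2918, 4898 and 6218 CPM in fl/fl and 2690, 3101 and 4401 CPM in iADKO (-0.59 ± 0.17, SE, adjusted p 0.0184). *mt-Nd4* (-0.77), *mt-Nd5* (-0.77), *mt-Nd2* (-0.75) and *mt-Nd6* (-0.97) also fell. *mt-Nd6* lies on the opposite strand and overlaps *mt-Nd5* at its end, and whether reads were counted by strand is not given in the sources used here. *mt-Nd3* (-0.97) had only 151 counts over 13 mice and *mt-Nd4l*, not tested, had 61. A nuclear copy matches 99.1% of *mt-Nd3* at 100% identity, and nuclear copies cover 63.6% of *mt-Nd4*, 52.4% of *mt-Nd5* and 49.2% of *mt-Nd2*, so these counts are uncertain. No such copy was found for *mt-Nd1* or *mt-Nd6*.

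**Figure D3:**
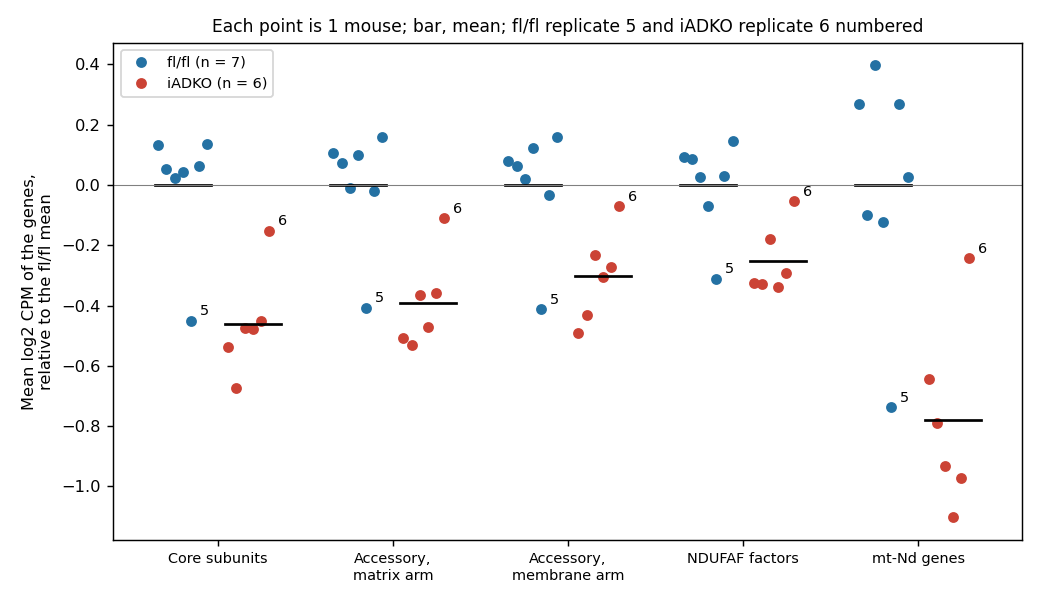
Mean log2 CPM of each gene group in each mouse, relative to the fl/fl mean (y axis, log2 units), for core subunits, accessory subunits of the matrix and membrane arms, NDUFAF factors and mt-Nd genes; bars are group means. In each of the 5 groups fl/fl mouse 5 is the lowest fl/fl point and iADKO mouse 6 the highest iADKO point.

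*Ndufa4*, a subunit of complex IV despite its name, was the most abundant of the 47 genes per kilobase of transcript (279.9 CPM in fl/fl). It was at 97.6, 151 and 178 CPM in fl/fl and 96.8, 109 and 130 CPM in iADKO (-0.43 ± 0.11, SE, adjusted p 0.0127). *Ndufa4l2*, its hypoxia-inducible paralog, was at 5.16, 10.1 and 12.4 CPM and at 5.30, 6.32 and 8.35 CPM (-0.50 ± 0.17, SE, adjusted p 0.0411). The call for *Ndufa4l2* held without fl/fl mouse 5 or 6 or iADKO mouse 6 and was lost when any of the 10 other mice was left out (adjusted p up to 0.0869).

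All 9 adipocyte markers were lower in iADKO (median log2 fold change -0.88). In all genes tested, 16.3% were lower and 14.1% higher. The summed level of the adipocyte markers was 14581 to 21029 CPM in fl/fl and 8845 to 14988 CPM in iADKO. Among the macrophage markers 6 of 9 were higher and 0 lower (median 0.49), with sums of 1421 to 2649 CPM and 1836 to 3167 CPM. T cell markers were higher in 3 of 6 (17.1 to 29.3 and 31.9 to 37.0 CPM) and B cell markers in 2 of 4 (19.7 to 53.1 and 33.9 to 72.6 CPM). Endothelial markers were lower in 2 of 5 (783 to 1097 and 824 to 952 CPM). Their log2 fold changes ran from -0.48 to 0.11, with a median of -0.02. No progenitor (0 of 5), mesothelial (0 of 4) or skeletal muscle (0 of 5) marker passed, but the skeletal muscle sum varied from 17.0 to 354 CPM in fl/fl and from 10.7 to 197 CPM in iADKO. Brown adipocyte markers, from cells rich in mitochondria, were lower in 2 of 3, with sums of 18.1 to 96.3 and 7.48 to 36.3 CPM, and the log2 fold change of *Ucp1* was -2.92 (adjusted p 0.00983). No marker list was at 0 in either group. The part of cell composition in the complex I result was not tested.

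**Figure D4:**
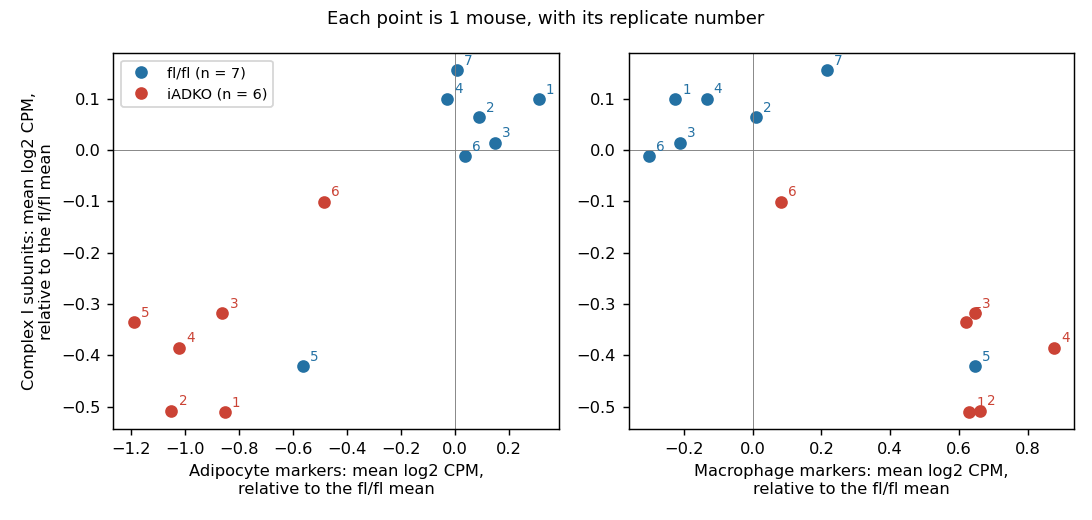
Mean log2 CPM of the 37 complex I subunits (y axis) against that of 9 adipocyte markers (left) and 9 macrophage markers (right), each relative to the fl/fl mean; every point is 1 mouse with its replicate number. Fl/fl mouse 5 lies among the iADKO mice on the subunit axis, and iADKO mouse 6 lies between the groups.

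Fl/fl mouse 5 had the macrophage score of the iADKO mice (0.65, against -0.30 to 0.22 in the other fl/fl mice), and iADKO mouse 6 had a score of 0.08, against 0.62 to 0.88 in the other iADKO mice. The subunit scores ran the other way, at -0.42 in fl/fl mouse 5 (others -0.01 to 0.15) and -0.10 in iADKO mouse 6 (others -0.51 to -0.32). For core subunits the scores were -0.45 and -0.15.

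The labels give a library number for each mouse, and here these numbers were grouped into 4 series, which the labels do not call batches. The series were A (706 and 707), B (722 to 727), C (747 to 765) and D (974 and 975). These bounds were a choice, as the gap from 750 to 765 inside series C is as wide as that from 707 to 722. Only 2 series held both genotypes. In series B (2 mice of each genotype, including fl/fl mouse 5 and iADKO mouse 6) the median log2 difference of the subunits was -0.10, and 28 of 37 were negative. In series C (3 fl/fl and 2 iADKO mice) it was -0.57, with 36 of 37 negative. For NDUFAF genes the medians were -0.02 and -0.46. With series as a block in the edgeR fit, 8 of 37 subunits were lower (*Ndufs1* among them) and 25 had an unadjusted p under 0.05, while the median was -0.35. The same fit called 7.17% of all genes lower. In that fit 1 NDUFAF gene and 0 mitochondrially encoded genes were lower (2 of 6 at an unadjusted p under 0.05). Series A held 2 fl/fl mice and series D held 2 iADKO mice, so there the series and the genotype cannot be told apart.

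The other respiratory complexes showed the same direction in their nuclear subunits. Complex II (succinate dehydrogenase) had 4 of 4 lower with a median log2 fold change of -0.51, complex III 8 of 9 (-0.49), complex IV 9 of 11 (-0.37) and complex V (ATP synthase) 11 of 17 (-0.30). Over these 41 genes 32 were lower, 0 were higher and the median was -0.37, against 28 of 37 and -0.36 for complex I. Among all genes tested, 16.3% were lower and 14.1% higher. *Sdha*, the flavoprotein of complex II, was at -0.72 ± 0.11 on the log2 scale (SE, adjusted p 0.000571). Whether complexes differed from each other was not tested.

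Among 7 regulators of mitochondrial gene expression, 1 was lower (14.3%) and 0 were higher, a share near the 16.3% of all genes called lower. *Esrra*, a nuclear receptor that drives respiratory chain genes, fell by 0.23 on the log2 scale (SE 0.06, adjusted p 0.0115). Its coactivator gene *Ppargc1a* was at -0.44 ± 0.20 (SE, adjusted p 0.0976) and *Tfam*, which maintains and transcribes mitochondrial DNA, at -0.16 ± 0.07 (SE, adjusted p 0.0788). *Nrf1*, which encodes nuclear respiratory factor 1, was at 0.15 ± 0.05 (SE, adjusted p 0.0537), and *Gabpa* (0.03) and *Yy1* (0.01) were near 0.

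Promoter letters associated with these factors were looked up in the reference genome, since many subunit genes moved together. The search covered 250 bases before to 50 bases after the GENCODE canonical start on GRCm39, on both strands, for AAGGTCA (ESRRA), GCGCATGC (NRF1), CCGGAAG (GABPA) and AAGATGGC (YY1). AAGGTCA was found in 4 of 37 subunits (10.8%) and in 3.66% of 14122 protein-coding genes tested, GCGCATGC in 2 of 37 (5.41%) and in 4.45%, CCGGAAG in 4 of 37 (10.8%) and in 14.1%, and AAGATGGC in 4 of 37 (10.8%) and in 3.18%. In 23 of 37 subunits none of the 4 was present, among them 20 of the 28 that fell. The AAGGTCA matches lay in *Ndufs1*, *Ndufb2*, *Ndufb4* and *Ndufs5*, of which only *Ndufs1* was called lower. A match is a description of letters and was not tested against expression.

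The 150 bases before the start are shown for the subunits with the lowest log2 fold change in each class, *Ndufs1* (core) and *Ndufa10* (accessory), and for the pair with the NRF1 letters, *Ndufa6* (lower) and *Ndufa13* (not past the threshold). Each is written 5′ to 3′ on the minus strand of GRCm39, and capitals mark the NRF1 letters. The first 2 hold none of the searched letters in this stretch.
Ndufs1: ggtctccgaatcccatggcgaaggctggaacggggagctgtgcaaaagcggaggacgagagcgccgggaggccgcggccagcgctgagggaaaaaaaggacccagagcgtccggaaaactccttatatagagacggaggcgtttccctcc
Ndufa10: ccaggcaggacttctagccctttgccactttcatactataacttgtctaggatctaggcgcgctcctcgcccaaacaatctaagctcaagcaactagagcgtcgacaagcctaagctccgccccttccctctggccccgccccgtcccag
Ndufa6: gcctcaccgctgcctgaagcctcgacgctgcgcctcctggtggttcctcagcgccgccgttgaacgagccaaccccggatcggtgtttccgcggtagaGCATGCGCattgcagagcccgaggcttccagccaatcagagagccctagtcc
Ndufa13: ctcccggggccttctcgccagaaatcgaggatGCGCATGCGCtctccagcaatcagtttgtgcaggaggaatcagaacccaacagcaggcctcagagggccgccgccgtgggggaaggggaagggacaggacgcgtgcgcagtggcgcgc
They lie at chr1:63216237-63216386 (*Ndufs1*), chr1:92401595-92401744 (*Ndufa10*), chr15:82238524-82238673 (*Ndufa6*) and chr8:70355873-70356022 (*Ndufa13*). All are upstream of the canonical first exon. For *Ndufa10* the annotated gene reaches position 92401613, so the bases nearest the start lie within the annotated gene. In *Ndufa13* the capitals hold a palindrome that is read on both strands. *Ndufa6*, an accessory subunit of the matrix arm, was at 52.9, 65.9 and 87.9 CPM in fl/fl and 49.3, 53.6 and 63.7 CPM in iADKO (-0.31 ± 0.10, SE, adjusted p 0.0291). *Ndufa13*, also known as GRIM-19, was at 64.0, 88.5 and 94.5 CPM and at 60.1, 70.9 and 91.1 CPM (-0.21 ± 0.10, SE, adjusted p 0.125).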

How the data were processed

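Whole pmWAT of 7 fl/fl and 6 iADKO mice was sequenced in 1 strand-specific mRNA library per mouse. The authors deposited raw, unnormalized read counts for 33618 Ensembl identifiers, of which 33184 were found in GENCODE vM39. Per the submitters' notes, reads were checked with FastQC 0.12.1, aligned with STAR 2.7.11a to mm39 and analysed with DESeq2; the counting tool, its strand setting and the annotation are not given in the sources used here. The deposited log2 (rlog) values were not used.

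Low genes were removed with filterByExpr of edgeR 4.0.16 in R 4.3.3, counts were normalized by TMM, and genotypes were compared with edgeR's quasi-likelihood test over all 16753 genes, with Benjamini-Hochberg adjustment and a threshold of 0.05. Log2 CPM used a prior count of 2, and standard errors came from the fold change and its test statistic. A list score is the mean log2 CPM of its genes. On simulated counts with 200 changed genes, 39.2% of 97 genes changed by 0.5 and 78.6% of 103 changed by 1 on the log2 scale were recovered, and 4.03% of calls were false. The data had 5104 genes called, far more than were changed in the simulation. The adjusted p depends on that share, so these recovery rates do not give the recovery in the data. Same-genotype mice differed beyond counting error (chi-square per degree of freedom 8.90 to 98.7), and p-values judge the genotype difference against the spread between mice. Totals of 18854223 to 19776491 counts limit precision for genes with few counts, and no interval from counts alone is given.

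The members and gene lists were chosen with earlier results of these data known. Named were core subunits, the 6 accessory subunits with the lowest and the 4 with the highest log2 fold change, every NDUFAF gene, *Ndufa4*, *Ndufa4l2*, mt-Nd genes and other assembly factors that passed; the other subunits that did not pass, those chosen for their promoters and the other genes named were added after their values were seen. Values of some single genes are left out here. Copies were sought with megablast. Alternatives were DESeq2 1.42.0 (Wald test), its size factors in edgeR, library totals, no filter, 10 counts in every sample, replicate and series blocks, each mouse left out and, chosen after seeing the data, both mice that stood apart.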

Additional observations from a re-analysis of the deposited data

Results flagged for a closer look

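In 19 of 124 groups of values examined (each gene in each genotype), 1 mouse lay far from the others: the gap to its nearest neighbour was a large share of the group's range, beyond Dixon's critical value. Chance gives about 1 such group in 20. The mouse was fl/fl mouse 5 in 16 groups and iADKO mouse 6 in 3.

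Fl/fl mouse 5 was the low value, with the nearest fl/fl mouse in brackets. Among core subunits it was at 117 CPM for *Ndufs1* (173), 59.2 CPM for *Ndufs3* (84.9), 49.5 CPM for *Ndufs7* (60.7), 37.6 CPM for *Ndufs8* (48.0) and 125 CPM for *Ndufv1* (187). Among accessory subunits it was at 70.9 CPM for *Ndufab1* (99.1), 103 CPM for *Ndufa9* (136), 54.6 CPM for *Ndufv3* (77.1), 26.5 CPM for *Ndufa11* (35.7), 49.2 CPM for *Ndufa8* (66.0), 70.9 CPM for *Ndufb5* (85.2) and 34.3 CPM for *Ndufb6* (53.1). The same mouse was lowest for *Ndufa4* (97.6 CPM against 149), *Ndufaf3* (11.3 against 14.5), *Timmdc1* (16.6 against 21.4) and *mt-Nd3* (0.455 against 0.752). IADKO mouse 6 was the high value for *Ndufv3* (73.2 CPM, nearest 57.5), *Ndufb10* (116 CPM, nearest 90.7) and *Ndufs7* (63.6 CPM, nearest 51.2). These groups share the same 2 mice and are not independent of each other.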

How the results depend on the processing

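Of the 30 named genes past the threshold, 0 changed sign under any of the 21 settings, but scaling and the library-number series moved the counts. Scaling by library totals alone called 8673 genes (1276 lower and 7397 higher, against 2737 and 2367). It left 11 subunits lower and 1 higher (median -0.16), an NDUFAF median of -0.0455, and 2 other assembly factors lower and 2 higher. This scaling raised the median of all genes by 0.20, and relative to that median the subunits were at -0.39 in both. Under it *Ndufb11* was at 0.0039, *Ndufb7* at 0.0635, *Ndufaf4* at 0.0551, *Ndufaf6* at 0.10 and *Ndufaf8* at 0.19. With the series as a block 1986 genes were called, with 8 subunits, 1 NDUFAF gene, 0 mitochondrially encoded genes and 3 other assembly factors lower, *Ndufb2* at -0.0377 and *Ndufaf8* at 0.0872. The cause of these changes was not tested. Without fl/fl mouse 5 and iADKO mouse 6, 6 NDUFAF genes were lower.

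With each mouse left out in turn, the genes called ranged from 3998 to 6604, the subunits lower from 23 (without iADKO mouse 1) to 36 (without fl/fl mouse 5), with 0 higher throughout, their median from -0.42 to -0.32, the NDUFAF genes lower from 3 to 5 (5 without fl/fl mouse 5), their median from -0.31 to -0.21, the other assembly factors lower from 6 to 7, and the mitochondrially encoded genes lower stayed at 6. *Ndufaf8*, at -0.01 with all mice, ranged from -0.0546 to 0.0567 and was positive without fl/fl mouse 4 (0.0034), 5 (0.0056) or 7 (0.042) or iADKO mouse 1 (0.013) or 5 (0.0567).

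The replicate numbers were not shown to pair the mice: deviations of same-numbered mice correlated between -0.03 and 0.22 over genes, above 0.1 in 3 pairs, and 3 of 6 mice correlated best with their own number. With the replicate number as a block, without fl/fl mouse 7, 4833 genes were called, 20 subunits were lower (median -0.32), 3 NDUFAF genes were lower (median -0.22) and *Ndufaf8* was at 0.0369. DESeq2, its size factors in edgeR and both filters on low counts kept every count given here within 1.5 times. A gene that did not pass may still differ, and genes with few counts (*Ndufb2*, *Ndufaf6*, *mt-Nd3*) are the least precise.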
